A study of Danio rerio with 12 samples.

Results

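The response to amyloid-β42 was compared between 2 sorted cell fractions of the adult zebrafish brain, and the quantity described throughout is the difference of the 2 responses. It was taken as the log2 fold change of AB42 over CPP in GFP-positive cells minus the same log2 fold change in GFP-negative cells. A positive difference means that the AB42 fold change was larger in GFP-positive cells, and a negative difference means that it was larger in GFP-negative cells. All 12 of the 12 libraries entered the comparison, and 20237 of the 31953 genes in the count table passed a filter on low counts and were tested.

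Every fish carried the Tg(her4.1:EGFP) reporter, in which the her4.1 promoter drives the green fluorescent protein, and was 6 months old. AB42 is the amyloid-β42 peptide, named TR-Aβ42 in the labels' extraction protocol, and CPP is the peptide injected into the brain in its place as a control, which the labels do not spell out. Cells were taken 48 hours after injection from dissociated brains and sorted by fluorescence. The 4 groups of 3 libraries were GFP-positive cells after AB42, GFP-positive cells after CPP, GFP-negative cells after AB42 and GFP-negative cells after CPP. The number of fish behind a library, their sex, and whether the libraries of a group came from separate sorts are not stated by the labels, so the p-values measure only the spread between libraries, which may be technical.

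The her4 genes are targets of Notch signalling, and their promoter is active in radial glia, the cells that line the ventricles of the adult zebrafish brain and act as its neural stem cells. Radial glia of zebrafish divide and give rise to neurons throughout life and after injury. Cells without the reporter include neurons, oligodendrocytes, blood vessel cells, blood cells and microglia, the resident macrophages of the brain. Microglia take up and degrade amyloid and dying cells, and produce complement, chemokines and cytokines. Interleukin-4 is a cytokine that acts through its receptor chain and the transcription factor STAT6.

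Total counts ran from 9262838 to 15584769 per library, and between 23083 and 25194 genes had at least 1 count. The non-coding RNA malat1 held between 14.9% and 20.9% of the counts of a library, with the highest shares in CPP GFP-positive cells. The sort was visible in its own markers. The reporter's source gene her4.1 averaged 1892 ± 120.3 CPM (counts scaled to library size with TMM factors; mean ± SD over 3 libraries, as in all such values below) in AB42 GFP-positive cells and 2277 ± 176 CPM in CPP GFP-positive cells, against 28.9 ± 1.03 CPM in AB42 GFP-negative cells and 32.3 ± 1.49 CPM in CPP GFP-negative cells. The myelin gene mbpa was not absent from GFP-positive cells, at 1098 ± 83.5 CPM after AB42 and 1686 ± 88.5 CPM after CPP, and had 6739 ± 110.1 CPM and 5881 ± 303 CPM in the GFP-negative groups in the same order. In sorted bulk libraries, fewer cells of a type and less RNA per cell cannot be told apart, for every gene described here.

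The 2 fractions answered AB42 differently for 4439 genes at an adjusted p under 0.05 (edgeR's quasi-likelihood test with Benjamini-Hochberg adjustment), which is 21.9% of the genes tested; 6655 genes had an unadjusted p under 0.05. The larger share lay on the negative side, with 3334 genes called lower (16.5%) and 1105 called higher (5.46%). A difference of at least 2-fold was reached by 1485 of the genes called lower and by 168 of those called higher. How the calls divide between the directions depended on the scaling of the libraries. TMM scaling gave 24.9% of the calls as higher, scaling to the upper quartile gave 1659 higher and 2789 lower calls (37.3% higher), and scaling to library totals gave 3248 higher and 2109 lower calls (60.6% higher). The median difference over all genes was -0.08 (log2) with TMM and 0.15 with library totals. Under all 4 scalings tried, 1105 genes were called higher (5.46%) and 2109 genes were called lower (10.4%). Genes named below kept their call on the difference in all 4 scalings unless the text says otherwise, and the percentages of a gene list are its members called lower and higher, to be read against the 16.5% and 5.46% of all genes, as its median difference is against -0.08. The lists and their members were chosen with earlier results of these data known, so the shares and ranks of lists are not independent of these data. The AB42 effect within a fraction was fitted with TMM scaling only. TMM factors ran from 1.067 to 1.095 in AB42 and from 1.175 to 1.205 in CPP GFP-negative libraries. In GFP-positive libraries they ran from 0.8839 to 0.9243 after AB42 and from 0.827 to 0.8744 after CPP. Small effects within a fraction, and their signs, can therefore depend on the scaling.

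Single libraries separated for about as many genes. For 4348 genes (21.5%) every single-library AB42 over CPP ratio in GFP-positive cells lay on the same side of every such ratio in GFP-negative cells, above them for 1148 (5.67%) and below them for 3200 (15.8%). Among the called genes this held for 850 of the 1105 called higher and for 2793 of the 3334 called lower.

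The most frequent pattern among the genes called lower with TMM scaling was a rise called in GFP-negative cells only. A missing call in a fraction does not show that a gene did not respond there. After AB42, 1778 of the genes called lower (53.3%) rose in GFP-negative cells with no call in GFP-positive cells. Another 553 (16.6%) fell in GFP-positive cells with no call in GFP-negative cells, and 457 (13.7%) fell in GFP-positive and rose in GFP-negative cells. A further 260 rose in both fractions, 146 fell in both and 140 were called in neither. Among the genes called higher, 696 (63.0%) fell in GFP-negative cells with no call in GFP-positive cells, 146 (13.2%) rose in GFP-positive cells with no call in GFP-negative cells, and 71 (6.43%) rose in GFP-positive and fell in GFP-negative cells. Altogether 528 genes moved in opposite directions in the 2 fractions with TMM scaling, each of the effects being called. Over all genes tested, 6.21% rose and 12.5% fell after AB42 in GFP-positive cells, and 20.9% rose and 17.3% fell in GFP-negative cells.

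**Figure D1:**
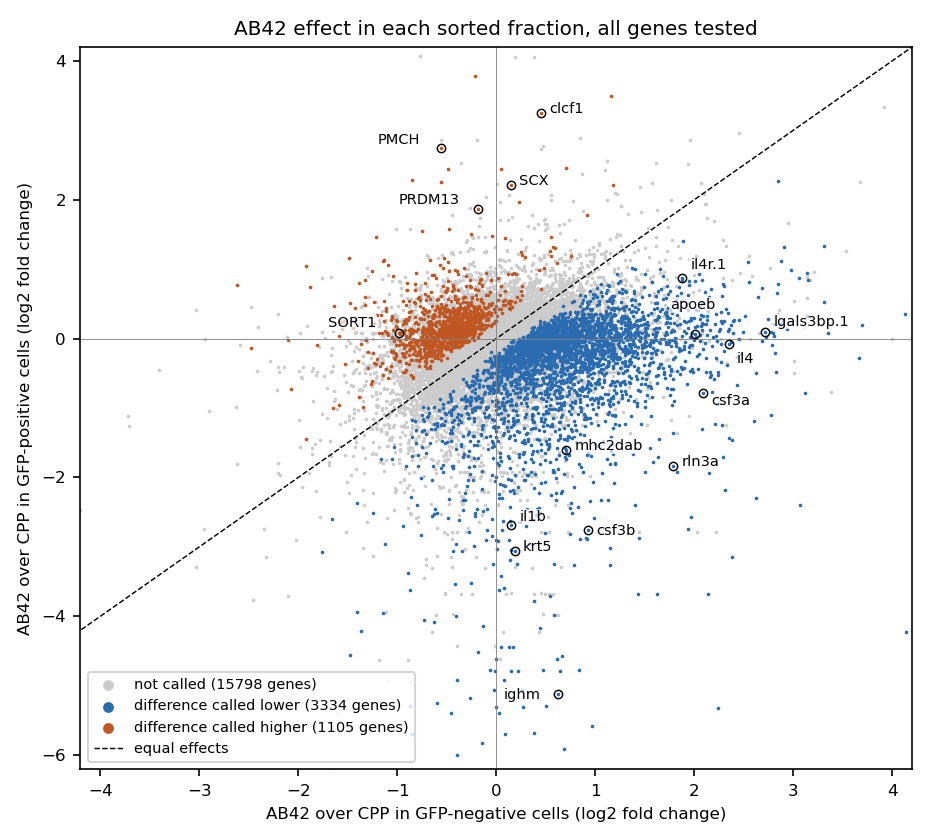
AB42 over CPP log2 fold change in GFP-positive cells (vertical axis) against the same in GFP-negative cells (horizontal axis), a point per gene; genes beyond the axis limits are not drawn. Colour marks the call on the difference between the axes: 3334 genes lie below the dashed line of equal effects and were called lower, and 1105 lie above it and were called higher; labelled genes are examples from both sides.

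The microglia and macrophage genes had the highest share called lower of the 34 gene lists: 50 of the 54 members tested were called lower and none was called higher, beside 16.5% and 5.46% of all genes. The median difference was -1.70 (log2) over the list and -0.08 over all genes. The median AB42 effect was -0.09 in GFP-positive cells and 1.67 in GFP-negative cells (log2 fold change). In GFP-negative cells 50 members rose after AB42 and none fell, and in GFP-positive cells 5 rose and 16 fell. Under all 4 scalings 48 members were called lower.

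Summed over the list, AB42 GFP-positive libraries held 3653 to 3936 CPM and CPP GFP-positive libraries 3714 to 3979 CPM. AB42 GFP-negative libraries held 11639 to 12175 CPM and CPP GFP-negative libraries 3718 to 4026 CPM. The sums of the AB42 GFP-negative libraries stood apart from those of the 3 other groups, which overlapped one another. No member was at 0 counts in any group. Abundant genes weigh most in such sums, and apoeb, described next, was higher in both GFP-positive groups than in CPP GFP-negative cells. The overlap of the sums therefore does not show equal amounts of microglial RNA in those groups.

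apoeb, on chr16:24045712-24048429 (GRCz10), encodes apolipoprotein E, a lipid carrier made by microglia and glia, and had the smallest p of all genes tested. It had 1729, 1686 and 1781 CPM in AB42 GFP-positive libraries, against 1647, 1602 and 1709.7 CPM in CPP GFP-positive libraries. GFP-negative cells held 3476, 3418 and 3601 CPM after AB42, against 911, 801 and 894 CPM after CPP. All 3 AB42 GFP-negative libraries were above all others, while the CPP and AB42 libraries of GFP-positive cells overlapped. The AB42 fold change was 1.05 in GFP-positive cells and 4.03 in GFP-negative cells, and the difference was -1.94 ± 0.07 (log2, SE; edgeR adjusted p = 4.29e-22).

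lgals3bp.1 (chr3:57671409-57673799), a galectin-3-binding protein gene, repeated this shape at a lower level. Its level was 89.4, 85.9 and 94.0 CPM in AB42 GFP-positive libraries, against 86.1, 79.2 and 85.9 CPM in CPP GFP-positive libraries. It reached 495, 490.4 and 513 CPM in AB42 GFP-negative libraries, against 80.0, 69.2 and 78.7 CPM in CPP GFP-negative libraries. The 9 libraries outside the AB42 GFP-negative group lay in a narrow band, and the AB42 fold change of GFP-negative cells was 6.15 times that of GFP-positive cells (log2 difference -2.62 ± 0.09; edgeR adjusted p = 7.5e-22).

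Other microglial genes had lower means after AB42 in GFP-positive cells while they rose in GFP-negative cells. For lgals9l1 and MPEG1, given below, the decrease was small and was not tested in another scaling. The chemokine gene ccl34b.1 (chr24:27318196-27320879) had 42.7, 50.8 and 60.2 CPM in AB42 GFP-positive libraries, against 72.0, 66.4 and 82.7 CPM in CPP GFP-positive libraries. The same gene had 281, 275 and 307 CPM in AB42 GFP-negative libraries, against 59.0, 59.8 and 72.8 CPM in CPP GFP-negative libraries. AB42 libraries were below CPP libraries in GFP-positive cells and far above them in GFP-negative cells, without overlap in either fraction, and the difference was -2.70 ± 0.13 (edgeR adjusted p = 2.9e-18). The galectin gene lgals9l1 averaged 165 ± 2.52 CPM in AB42 and 185 ± 3.32 CPM in CPP GFP-positive cells, and 711 ± 10.5 CPM in AB42 and 195 ± 8.22 CPM in CPP GFP-negative cells (difference -2.03 ± 0.08; edgeR adjusted p = 3.42e-21). MPEG1, the macrophage-expressed gene that serves as a reporter for microglia in zebrafish, differed by -1.39 ± 0.10 (edgeR adjusted p = 1.84e-13); it averaged 35.9 ± 1.89 CPM and 41.9 ± 3.25 CPM in the AB42 and CPP GFP-positive groups and 273 ± 5.39 CPM and 122 ± 5.66 CPM in the AB42 and CPP GFP-negative groups.

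The 4 members that were not called were AIF1L, tyrobp and 2 of the 6 genes with the symbol MFAP4, and they were singled out here for missing the threshold. AIF1L, which encodes an actin-binding protein, averaged 62.3 CPM in AB42 and 57.9 CPM in CPP GFP-positive cells, and 95.2 CPM in AB42 and 103 CPM in CPP GFP-negative cells. tyrobp, a microglial adaptor, was below 1 CPM in every group, which limits the difference that could be called.

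**Figure D2:**
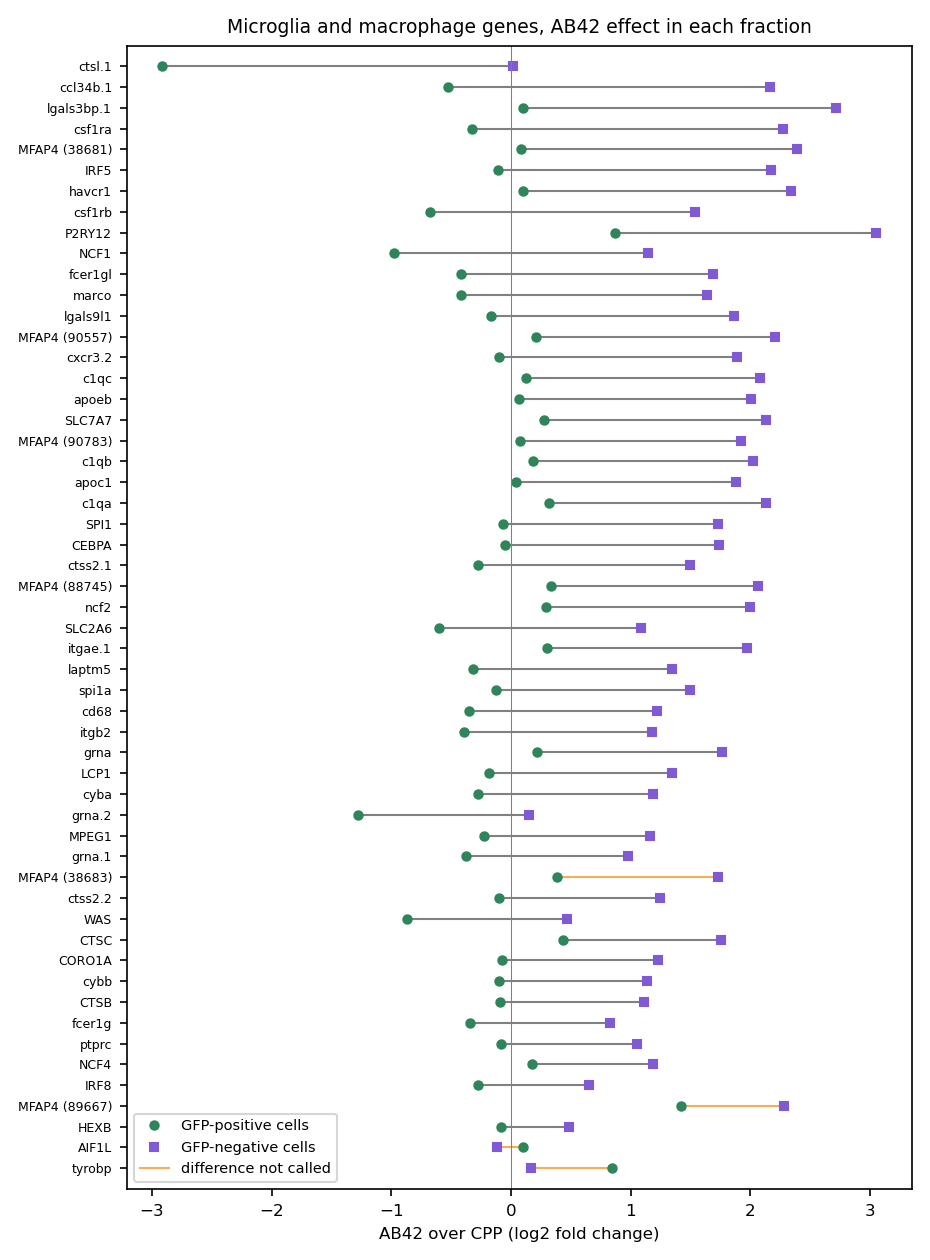
AB42 over CPP log2 fold change of each of the 54 microglia and macrophage genes tested, in GFP-positive cells (green circles) and GFP-negative cells (purple squares), ordered by the difference; an orange bar marks a difference that was not called, and digits after MFAP4 end its gene identifier. The medians were -0.09 for GFP-positive and 1.67 for GFP-negative cells.

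The C1q genes of the complement system, which are also members of the microglia list, had the same pattern. Of the complement, coagulation and fibrinolysis genes, 19 of 40 members tested were called lower and none higher (47.5% and 0%), 10 of them under all 4 scalings, with a median difference of -0.55. c1qc (chr21:22681219-22683776), a chain of the C1q protein that tags synapses and debris, had 25.0, 26.6 and 29.7 CPM in AB42 GFP-positive libraries, against 22.7, 25.9 and 25.7 CPM in CPP GFP-positive libraries. Its GFP-negative levels were 150.1, 147 and 158 CPM after AB42, against 33.1, 34.3 and 39.5 CPM after CPP. The 3 AB42 GFP-negative libraries were above all others, with no call in GFP-positive cells, and c1qc, c1qb and c1qa differed by -1.96, -1.84 and -1.81 (log2; edgeR adjusted p = 7.34e-15, 5.88e-14 and 8.39e-10). cfp, which encodes properdin, the stabiliser of the alternative complement convertase, differed by -1.37 ± 0.15 (edgeR adjusted p = 4.07e-09) and rose 2.69-fold in GFP-negative cells.

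The interleukin-4 gene, its receptor genes il4r.1 and il13ra1 and the transcription factor gene stat6 all responded more in GFP-negative cells. Of 22 members of the list, 9 were called lower and none higher (40.9% and 0%), 6 of them under all 4 scalings, and the median difference was -0.50. The ligand gene il4 (chr14:23702323-23704580) had 0.250, 0.711 and 0.543 CPM in AB42 GFP-positive libraries, against 0.316, 0.719 and 0.559 CPM in CPP GFP-positive libraries. In GFP-negative libraries it had 11.8, 10.7 and 11.5 CPM after AB42, against 1.63, 2.27 and 2.57 CPM after CPP. The GFP-positive values rest on 17 counts over the 3 AB42 libraries and 19 counts over the 3 CPP libraries and overlap, so that no AB42 effect was detectable there at this depth, while the GFP-negative groups did not overlap. il4 rose 5.09-fold in GFP-negative cells, and the difference was -2.42 ± 0.56 with a 95% interval of -3.56 to -1.29 (edgeR adjusted p = 0.00123).

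The receptor il4r.1 (chr3:43301383-43359120) was present in both fractions. Its level was 37.8, 42.0 and 49.8 CPM in AB42 GFP-positive libraries, against 23.3, 20.6 and 26.5 CPM in CPP GFP-positive libraries. The GFP-negative values were 51.0, 48.1 and 48.0 CPM after AB42, against 13.1, 12.04 and 14.7 CPM after CPP. Every AB42 library was above every CPP library of its fraction, so the receptor rose in both, 1.84-fold in GFP-positive and 3.67-fold in GFP-negative cells. The response in GFP-negative cells was the larger, with a difference of -0.999 ± 0.16 (log2; edgeR adjusted p = 5.58e-06). il13ra1, a receptor chain shared by interleukin-4 and interleukin-13, likewise rose in both fractions, 1.26-fold and 2.46-fold in GFP-positive and GFP-negative cells, with a difference of -0.97 ± 0.13 (edgeR adjusted p = 1.87e-07). stat6 averaged 19.97 ± 2.64 CPM and 14.4 ± 2.23 CPM in the AB42 and CPP GFP-positive groups and 26.5 ± 2.02 CPM and 12.1 ± 0.923 CPM in the AB42 and CPP GFP-negative groups. Its difference of -0.66 ± 0.18 (edgeR adjusted p = 0.00652) was not called when libraries were scaled to their totals, where it was -0.44 (edgeR adjusted p = 0.0793). PTPN6, a phosphatase of blood cells that restrains cytokine receptors, fell 1.28-fold in GFP-positive and rose 2.45-fold in GFP-negative cells (difference -1.65 ± 0.12; edgeR adjusted p = 1.2e-13).

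Inflammatory cytokine and NF-kB genes were called lower in 28 of 57 members and higher in 5 (49.1% and 8.77%), with a median difference of -0.73 and median AB42 effects of 0.03 in GFP-positive and 0.78 in GFP-negative cells. Without CPP GFP-negative replicate 1 the count called higher was 8. After AB42, 18 members fell and 16 rose in GFP-positive cells, and 2 fell and 35 rose in GFP-negative cells. il1b (chr10:45109897-45117159), the gene of the inflammatory cytokine interleukin-1β, fell in GFP-positive cells, with 2.50, 2.61 and 3.15 CPM in AB42 GFP-positive libraries, against 16.8, 20.3 and 15.5 CPM in CPP GFP-positive libraries. Its GFP-negative levels hardly separated, at 26.0, 25.0 and 26.5 CPM after AB42, against 23.9, 22.3 and 23.5 CPM after CPP. The gene was 6.42 times lower after AB42 in GFP-positive cells, with no overlap, and the fold change in GFP-negative cells was 1.11 (edgeR adjusted p = 0.303). The difference was -2.83 ± 0.20 (edgeR adjusted p = 1.2e-13).

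Both granulocyte colony-stimulating factor genes fell in GFP-positive cells and rose in GFP-negative cells. csf3a (chr12:10593423-10598869) had 4.51, 4.74 and 4.56 CPM in AB42 GFP-positive libraries, against 10.0, 7.19 and 6.42 CPM in CPP GFP-positive libraries. The GFP-negative fraction held 38.1, 39.13 and 33.4 CPM after AB42, against 7.89, 7.78 and 10.1 CPM after CPP. Thus csf3a fell 1.72-fold in GFP-positive and rose 4.26-fold in GFP-negative cells, and csf3b fell 6.79-fold and rose 1.90-fold in the same order. The differences were -2.87 ± 0.23 for csf3a and -3.69 ± 0.29 for csf3b (edgeR adjusted p = 2.05e-12 and 1.46e-12). The chemokine gene ccl35.1 also fell in GFP-positive cells, to 85.7 ± 10.4 CPM after AB42 against 122 ± 2.46 CPM after CPP, and rose in GFP-negative cells, to 582 ± 16.2 CPM against 303 ± 23.1 CPM (difference -1.45 ± 0.09; edgeR adjusted p = 1.1e-14).

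The heparin-binding EGF gene HBEGF (chr21:30124600-30132252), whose product activates EGF receptors and is known as a signal for regeneration from glia of the fish retina, had the same direction. It had 10.3, 12.1 and 13.4 CPM in AB42 GFP-positive libraries, against 16.0, 16.5 and 17.1 CPM in CPP GFP-positive libraries. Its level was 114, 112 and 127 CPM in AB42 GFP-negative libraries, against 27.7, 27.9 and 33.1 CPM in CPP GFP-negative libraries. HBEGF fell 1.39-fold in GFP-positive cells and rose 3.95-fold in GFP-negative cells, a difference of -2.46 ± 0.15 (edgeR adjusted p = 1.08e-15).

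clcf1 (chr14:21725196-21741151), the gene of cardiotrophin-like cytokine factor 1 of the interleukin-6 family, went the other way. It had 7.595, 7.83 and 4.35 CPM in AB42 GFP-positive libraries, against 1.03, 0.320 and 0.745 CPM in CPP GFP-positive libraries. In GFP-negative cells the values were 5.66, 5.23 and 5.66 CPM after AB42, against 2.90, 4.13 and 4.81 CPM after CPP. The gene rose 9.48-fold in GFP-positive cells, to about the level it already had in GFP-negative cells, where its fold change of 1.37 was not called (edgeR adjusted p = 0.122). The difference was 2.79 ± 0.41 (95% interval 1.96 to 3.62; edgeR adjusted p = 1.71e-06), on 25 counts in the CPP GFP-positive libraries.

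**Figure D3:**
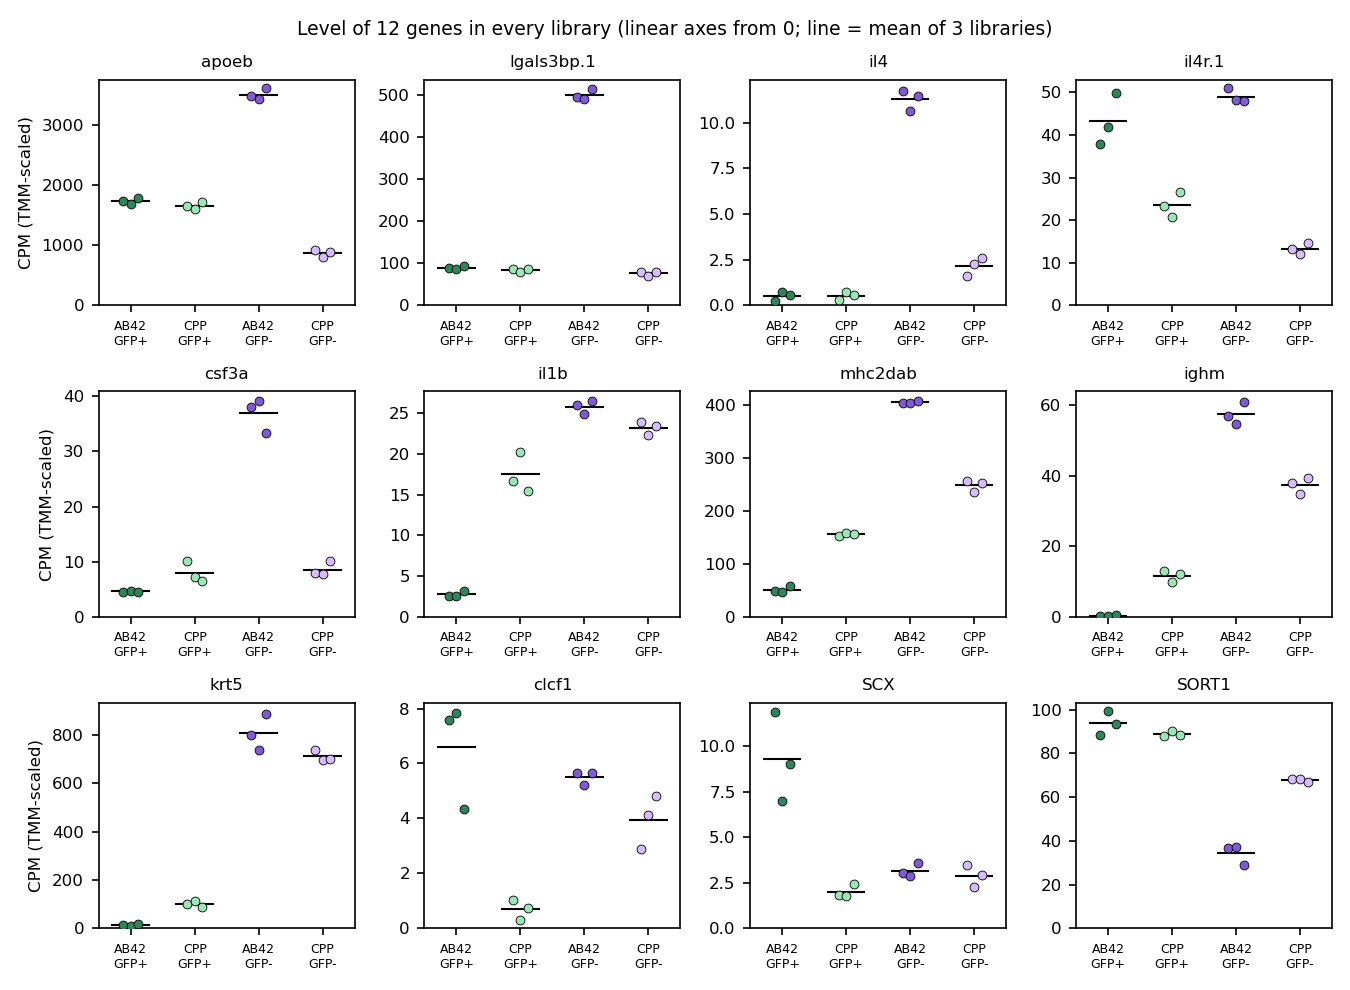
Level of 12 genes in every library, in CPM after TMM scaling, on linear axes that start at 0; each point is a library, each line the mean of 3, and the groups run AB42 GFP-positive, CPP GFP-positive, AB42 GFP-negative and CPP GFP-negative. apoeb, lgals3bp.1, il4 and csf3a stand out in AB42 GFP-negative cells, il1b, mhc2dab, ighm and krt5 drop in AB42 GFP-positive cells, clcf1 and SCX rise in AB42 GFP-positive cells, il4r.1 rises in AB42 cells of both fractions, and SORT1 drops in AB42 GFP-negative cells.

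Many antigen presentation genes fell in GFP-positive cells and rose in GFP-negative cells. Of the interferon response and antigen presentation list, 34 of 51 members were called lower and none higher (66.7% and 0%), 28 of them under all 4 scalings, with a median difference of -0.87. In GFP-positive cells 32 members fell and 2 rose, and in GFP-negative cells 2 fell and 29 rose. Summed over the list, GFP-positive libraries held 11195 to 11655 CPM after AB42 and 11315 to 12306 CPM after CPP. These sums, in which abundant members weigh most, overlapped and did not show the fall. GFP-negative libraries held 12144 to 12505 CPM after AB42 and 7479 to 7957 CPM after CPP. mhc2dab (chr8:36434337-36436683), an MHC class II chain, had 48.5, 47.9 and 57.7 CPM in AB42 GFP-positive libraries, against 153, 158 and 157 CPM in CPP GFP-positive libraries. It had 405, 404 and 408 CPM in AB42 GFP-negative libraries, against 258, 236 and 253 CPM in CPP GFP-negative libraries. The groups of neither fraction overlapped, and the gene fell 3.05-fold in GFP-positive and rose 1.63-fold in GFP-negative cells, a difference of -2.31 ± 0.09 (edgeR adjusted p = 8.7e-21).

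The invariant chain genes, whose products escort class II molecules, did the same. cd74a averaged 335 ± 15.8 CPM in AB42 and 642 ± 46.5 CPM in CPP GFP-positive cells, and 2792 ± 105 CPM in AB42 and 1329 ± 74.0 CPM in CPP GFP-negative cells (difference -2.01 ± 0.07; edgeR adjusted p = 2.63e-21). cd74b differed by -1.998 ± 0.09 and the class II chain mhc2daa by -1.92 ± 0.08 (edgeR adjusted p = 2.05e-18 and 3.73e-20). The class I gene mhc1zba was the most abundant of these in GFP-positive cells, at 975 ± 47.4 CPM after AB42 and 1468 ± 83.1 CPM after CPP, against 1254 ± 37.5 CPM and 788 ± 47.9 CPM in GFP-negative cells after AB42 and CPP, and its difference was -1.26 ± 0.07 (edgeR adjusted p = 3.73e-16). MHC genes are near-identical copies, and the labels do not say how reads that fit several of them were counted; the same holds for the keratin, immunoglobulin, haemoglobin and ribosomal protein genes below.

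Genes of lymphocytes and epithelia that were nearly gone from AB42 GFP-positive libraries had some of the most negative differences. Of the neutrophil and lymphocyte genes, 19 of 31 were called lower and none higher (61.3% and 0%), with a median difference of -1.57 and median effects of -0.97 in GFP-positive and 0.41 in GFP-negative cells. ighm (chr3:33833739-33965713), the heavy chain of immunoglobulin M and a gene of B cells, had 0.250, 0.237 and 0.543 CPM in AB42 GFP-positive libraries, against 12.96, 9.91 and 12.2 CPM in CPP GFP-positive libraries. The GFP-negative libraries held 56.8, 54.6 and 60.8 CPM after AB42, against 37.98, 34.8 and 39.2 CPM after CPP. Its AB42 GFP-positive values rest on 11 counts, against 419 counts after CPP, and the gene was 34.9 times lower after AB42 in that fraction while it rose 1.54-fold in GFP-negative cells (difference -5.74 ± 0.28; edgeR adjusted p = 4.83e-18).

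Several genes of this kind had between 0 and 2 counts over the 3 AB42 GFP-positive libraries, and their fitted differences depend on the prior count of the model. tbx21, a transcription factor of T and natural killer cells, had 0 counts there and 16 counts after CPP, which puts it at least 1.60-fold lower in AB42 GFP-positive cells at a floor of 3 counts per library; it had 8.13 ± 0.568 CPM and 4.19 ± 0.460 CPM in AB42 and CPP GFP-negative cells. igic1s1, an immunoglobulin light chain gene, had 2 counts after AB42 and 68 after CPP in GFP-positive cells, a ratio of 0.0312 (95% interval 0.00370 to 0.117) that covers counting error only. itga2b, the integrin of thrombocytes, had 1 count after AB42 and 33 after CPP, a ratio of 0.0322 (95% interval 0.000790 to 0.192). In GFP-negative cells igic1s1 averaged 8.12 ± 1.61 CPM after AB42 and 8.16 ± 1.14 CPM after CPP, and itga2b averaged 14.2 ± 0.906 CPM and 8.82 ± 2.29 CPM. The GFP-negative effect was called for itga2b, which rose, and not for igic1s1 (edgeR adjusted p = 0.962), and both genes were called lower for the difference (edgeR adjusted p = 8.14e-07 and 4.09e-06).

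Keratin and epithelial junction genes were called lower in 18 of 40 members and higher in 1 (45% and 2.5%), with a median difference of -1.24 (2 higher without CPP GFP-negative replicate 1 or 3, CPP GFP-positive replicate 2 or AB42 GFP-positive replicate 3) and median effects of -0.86 in GFP-positive and -0.08 in GFP-negative cells. krt5 (chr23:10238226-10242488), a keratin of basal epithelial cells, had 12.8, 8.77 and 16.1 CPM in AB42 GFP-positive libraries, against 103, 114 and 89.4 CPM in CPP GFP-positive libraries. Its values in GFP-negative cells were 802, 738 and 889 CPM after AB42, against 736, 697 and 701 CPM after CPP. The fall of 8.30-fold was present in each of the 3 AB42 GFP-positive libraries, and the GFP-negative effect was not called (edgeR adjusted p = 0.0606), so that the difference was -3.24 ± 0.14 (edgeR adjusted p = 9.61e-20). The claudin genes cldnb and cldna, which build tight junctions, differed by -2.72 ± 0.18 and -2.63 ± 0.23 (edgeR adjusted p = 8.56e-15 and 2.84e-11). The tight junction gene cldn7b had 2 counts after AB42 and 126 after CPP in GFP-positive cells, a ratio of 0.0168 (95% interval 0.00202 to 0.0621). krt8, which is expressed in many simple epithelia and glia of fish, rose in both fractions instead, to 316 ± 11.9 CPM in AB42 against 207 ± 10.8 CPM in CPP GFP-positive cells and to 393 ± 11.9 CPM in AB42 against 142 ± 2.28 CPM in CPP GFP-negative cells (difference -0.87 ± 0.08; edgeR adjusted p = 7.95e-11).

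These genes are markers of cells that the GFP-negative fraction holds, and their summed levels were lower in GFP-positive than in GFP-negative libraries. The 31 neutrophil and lymphocyte genes summed to 108 to 117 CPM in AB42 and 134 to 152 CPM in CPP GFP-positive libraries, against 938 to 945 CPM in AB42 and 554 to 594 CPM in CPP GFP-negative libraries. The 2 members at 0 counts in AB42 GFP-positive cells were tbx21 and cd79b, and no member was at 0 counts in another group. The 40 epithelial genes summed to 783 to 830.4 CPM in AB42 and 789 to 816 CPM in CPP GFP-positive libraries, and to 2114 to 2362 CPM in AB42 and 1797 to 1876 CPM in CPP GFP-negative libraries. The epithelial sums of the GFP-positive groups overlapped and did not show the fall of genes such as krt5. Abundant members weigh most in them, among them krt8, which rose. All genes tested, list members included, were also grouped by the fraction that held more of them. The levels of all 4 groups enter both this grouping and the difference, the AB42 levels with the same sign and the CPP levels with opposite signs. A fall in AB42 GFP-positive cells thus moves a gene toward the group lowest in that fraction, and the shares are not independent of the grouping. Among the 814 genes whose level, averaged over both injections, was more than 8-fold lower in GFP-positive cells than in the other fraction, 38.8% were called lower and 0.246% higher, with a median difference of -0.98 and median effects of -1.11 in GFP-positive and -0.12 in GFP-negative cells. Among the 608 genes more than 8-fold higher in GFP-positive cells, 17.8% were called lower and 4.44% higher, with a median difference of -0.13. The part of an unequal carry-over of other cells into the GFP-positive sort in these results was not tested.

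**Figure D4:**
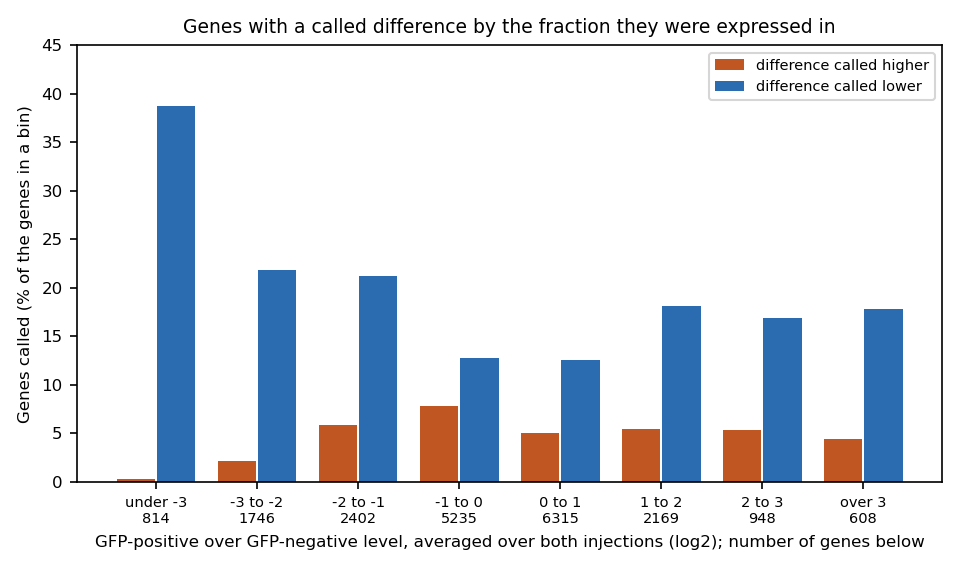
Share of genes called higher (orange) and lower (blue) for the difference, in bins of the GFP-positive over GFP-negative level averaged over both injections (log2; the number of genes stands under each bin). The share called lower is 38.8% in the leftmost bin of genes that GFP-positive cells hold least of, and 12.6% to 21.8% elsewhere. The levels of all 4 groups enter both the bin and the difference, so the shares are not independent of the binning.

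Blood vessel and myelin genes differed in the same direction. Of the endothelial and mural cell genes, 15 of 43 were called lower and none higher (34.9% and 0%), with a median difference of -0.75. pecam1a, an adhesion molecule of endothelium, rose 1.72-fold in GFP-positive and 4.90-fold in GFP-negative cells (difference -1.51 ± 0.20; edgeR adjusted p = 2.27e-07). rgs5b, a regulator of G-protein signalling found in pericytes, fell 1.80-fold and rose 2.098-fold in the same order (difference -1.92 ± 0.12; edgeR adjusted p = 1.16e-15). robo4, a guidance receptor known from endothelium, was the more abundant in GFP-positive cells, at 139.6 ± 11.9 CPM after AB42 and 126 ± 9.81 CPM after CPP, against 11.5 ± 0.802 CPM after AB42 and 3.92 ± 1.16 CPM after CPP, and its rise was called in GFP-negative cells and not in GFP-positive cells (difference -1.37 ± 0.17; edgeR adjusted p = 9.6e-08).

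Of the oligodendrocyte lineage genes, 10 of 22 were called lower and none higher (45.5% and 0%), with a median difference of -0.34. mbpa (chr19:22229724-22248307), the gene of myelin basic protein, had 1039, 1061 and 1193 CPM in AB42 GFP-positive libraries, against 1659, 1615 and 1785 CPM in CPP GFP-positive libraries. It had 6621, 6758 and 6839 CPM in AB42 GFP-negative libraries, against 5958, 5548 and 6138 CPM in CPP GFP-negative libraries. With TMM scaling the injections did not overlap in either fraction, and the signs of the effects were opposite (difference -0.82 ± 0.07; edgeR adjusted p = 3.23e-12). The small rise of mbpa in GFP-negative cells was not tested in another scaling. plp1b and CLDN19, which encode proteolipid protein and a myelin claudin, differed by -0.68 and -0.86 (edgeR adjusted p = 8.47e-11 and 4.44e-09), both falling in GFP-positive and rising in GFP-negative cells. Summed over the oligodendrocyte list, AB42 GFP-positive libraries held 5040.3 to 5473 CPM and CPP GFP-positive libraries 6687 to 7077 CPM, while AB42 GFP-negative libraries held 19116 to 19715 CPM and CPP GFP-negative libraries 15122 to 16373 CPM; the part of carried-over myelin in the GFP-positive values was not tested.

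In the iron, metal and redox list 21 of 51 members were called lower and 2 higher (41.2% and 3.92%; 4 higher without CPP GFP-negative replicate 2), with a median difference of -0.36. After AB42, 11 members rose and 8 fell in GFP-positive cells, and 23 rose and 5 fell in GFP-negative cells. HMOX1, haem oxygenase 1, averaged 69.9 ± 8.59 CPM in AB42 and 71.9 ± 7.33 CPM in CPP GFP-positive cells, and 164 ± 8.14 CPM in AB42 and 49.9 ± 2.38 CPM in CPP GFP-negative cells (difference -1.76 ± 0.11; edgeR adjusted p = 1.16e-14). The ferritin gene fthl27, for iron storage, and the zinc exporter SLC30A1 differed by -1.41 ± 0.08 and -1.36 ± 0.12 (edgeR adjusted p = 1.06e-16 and 3e-11). abca1b, which loads lipid onto apolipoproteins, had 21.6, 22.1 and 25.0 CPM in AB42 GFP-positive libraries, against 19.4, 16.6 and 21.4 CPM in CPP GFP-positive libraries. Its GFP-negative libraries had 61.5, 60.4 and 56.7 CPM after AB42, against 14.4, 12.04 and 10.9 CPM after CPP. The GFP-positive effect was not called (edgeR adjusted p = 0.129), the GFP-negative rise was 4.84-fold, and the difference was -2.02 ± 0.16 (edgeR adjusted p = 2.16e-12).

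Amyloid precursor processing and lipid transport genes were divided, with 7 of 38 members called lower and 6 higher (18.4% and 15.8%) and a median difference of -0.12, which was 0.11 with library totals. SORT1 (chr11:36019624-36079045), the sorting receptor sortilin that binds neurotrophin precursors and apolipoprotein E, had 88.2, 99.5 and 93.7 CPM in AB42 GFP-positive libraries, against 87.9, 90.3 and 88.6 CPM in CPP GFP-positive libraries. It had 36.9, 37.1 and 28.8 CPM in AB42 GFP-negative libraries, against 68.4, 68.2 and 66.9 CPM in CPP GFP-negative libraries. It fell 1.97-fold in GFP-negative cells with no call in GFP-positive cells (edgeR adjusted p = 0.561), and the difference was 1.06 ± 0.11 (edgeR adjusted p = 3.35e-09). LRP8, a receptor for reelin and apolipoprotein E, and the amyloid precursor gene appa followed it with differences of 0.85 ± 0.11 and 0.47 ± 0.08 (edgeR adjusted p = 3e-07 and 2.4e-05). appa averaged 223 ± 7.46 CPM in AB42 and 217 ± 8.48 CPM in CPP GFP-positive cells, and 327 ± 5.11 CPM in AB42 and 441 ± 29.6 CPM in CPP GFP-negative cells. PSEN2, a catalytic subunit of γ-secretase, had the opposite sign at -0.93 ± 0.18 (edgeR adjusted p = 9.85e-05).

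Genes of protein folding rose more in GFP-negative cells. Of the endoplasmic reticulum stress and folding genes, 25 of 49 were called lower and none higher (51% and 0%; 2 higher without CPP GFP-negative replicate 2 or AB42 GFP-negative replicate 3), 21 of them under all 4 scalings, with a median difference of -0.47. After AB42, 14 members rose and 2 fell in GFP-positive cells, and 35 rose and 2 fell in GFP-negative cells. HSPA5 (chr5:2440676-2448586), the main chaperone of the endoplasmic reticulum, had 3107, 3085 and 3142 CPM in AB42 GFP-positive libraries, against 1610.4, 1726 and 1677 CPM in CPP GFP-positive libraries. Its GFP-negative level was 2552, 2462 and 2689 CPM after AB42, against 807, 789 and 802 CPM after CPP. The rise was 1.86-fold in GFP-positive and 3.21-fold in GFP-negative cells, and all AB42 libraries exceeded all CPP libraries (difference -0.79 ± 0.06; edgeR adjusted p = 8.05e-13). HSP90B1, a chaperone of the same compartment, differed by -0.73 ± 0.07 (edgeR adjusted p = 9.49e-10). XBP1, a transcription factor of the unfolded protein response, rose 1.90-fold in GFP-negative cells with a fold change of 1.01 in GFP-positive cells (difference -0.92 ± 0.07; edgeR adjusted p = 6.92e-13).

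Cytosolic heat shock genes were called lower in 22 of 62 members and higher in 6 (35.5% and 9.68%), but only 9 were called lower under all 4 scalings, and the list's median of -0.20 became 0.03 when libraries were scaled to their totals, where all genes had a median of 0.15. hsp70l averaged 15767 ± 267 CPM in AB42 and 12832 ± 90.6 CPM in CPP GFP-positive cells, and 13984 ± 352 CPM in AB42 and 8023 ± 38.3 CPM in CPP GFP-negative cells (difference -0.50 ± 0.04; edgeR adjusted p = 1.95e-11). hsp70.1 and hsp70.3, near-identical copies among which reads may have been divided, differed by -0.57 ± 0.04 and -0.54 ± 0.04 (edgeR adjusted p = 9.76e-13 and 4.6e-12). The count of members called lower was 12 without AB42 GFP-negative replicate 3, 13 without CPP GFP-negative replicate 2 and 14 without CPP GFP-negative replicate 1.

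Immediate early and AP-1 genes, which respond within minutes to stimulation and to tissue dissociation, were called lower in 35 of 58 members and higher in 4 (60.3% and 6.9%), with a median difference of -0.37. Under all 4 scalings 22 were called lower and 4 higher. ier2a averaged 421 ± 30.2 CPM in AB42 and 535 ± 21.1 CPM in CPP GFP-positive cells, and 469.7 ± 20.7 CPM in AB42 and 259 ± 15.8 CPM in CPP GFP-negative cells (difference -1.20 ± 0.08; edgeR adjusted p = 3.91e-14). DUSP1 and DUSP2, phosphatases that switch off MAP kinases, also fell in GFP-positive and rose in GFP-negative cells, with differences of -1.13 ± 0.08 and -1.01 ± 0.08 (edgeR adjusted p = 4.13e-14 and 9.54e-12). JUNB, an AP-1 subunit, had a fold change of 1.02 in GFP-positive cells and rose 1.74-fold in GFP-negative cells (difference -0.77 ± 0.06; edgeR adjusted p = 2.37e-13). ATF3 rose in both fractions, and its difference of -0.27 ± 0.08 (edgeR adjusted p = 0.0157) was not called under all 4 scalings and lost its call without AB42 GFP-negative replicate 3 (-0.19; edgeR adjusted p = 0.13), CPP GFP-negative replicate 2 (-0.14; 0.244), or AB42 GFP-positive replicate 1 or 2 (-0.25 and -0.24; 0.0528 and 0.0643). Whether dissociation has a part in these values was not tested.

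Apoptosis, p53 and growth arrest genes were called lower in 19 of 50 members and higher in 4 (38% and 8%; 7 higher without CPP GFP-negative replicate 2). Under all 4 scalings 12 were called lower and 4 higher, and library totals gave 12 lower and 13 higher. The list's median difference of -0.26 became -0.04 with library totals, where all genes had 0.15. tnfrsfa, a tumour necrosis factor receptor, rose 1.28-fold in GFP-positive cells, to 102 ± 1.5 CPM in AB42 against 79.8 ± 7.63 CPM in CPP libraries, and 4.68-fold in GFP-negative cells, to 119.6 ± 2.95 CPM against 25.5 ± 1.68 CPM (difference -1.87 ± 0.11; edgeR adjusted p = 3.31e-16). pmaip1, which encodes the death promoter Noxa, and mcl1b, whose product opposes it, both fell in GFP-positive and rose in GFP-negative cells, with differences of -1.57 ± 0.12 and -1.15 ± 0.08 (edgeR adjusted p = 2.87e-13 and 1.26e-13).

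Cytosolic ribosomal protein genes were called lower in 71 of 80 members and higher in none (88.8% and 0%), with a median difference of -0.42 and median effects of 0.05 in GFP-positive and 0.44 in GFP-negative cells. This count rested on the scaling and on single libraries. Under all 4 scalings 26 members were called lower, and with library totals the list's median was -0.19 beside 0.15 for all genes. Without AB42 GFP-negative replicate 3 the count was 35, and without CPP GFP-negative replicate 1 or 2 it was 45 or 44. Leaving out these libraries also moved the median difference of all genes, from -0.08 to -0.002, -0.010 and -0.015 in the same order. rps20, the member with the smallest p, averaged 698 ± 59.2 CPM in AB42 and 707 ± 78.7 CPM in CPP GFP-positive cells, and 777 ± 63.9 CPM in AB42 and 476 ± 36.2 CPM in CPP GFP-negative cells (difference -0.73 ± 0.10; edgeR adjusted p = 2.7e-07).

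Mature neuron genes were called lower in 16 of 44 members and higher in 8 (36.4% and 18.2%), 10 and 8 of them under all 4 scalings, with median effects of -0.68 in GFP-positive and -0.45 in GFP-negative cells; AB42 lowered 24 members in GFP-positive and 29 in GFP-negative cells. SLC32A1, the vesicular transporter of GABA and glycine, had 4.26, 5.30 and 4.13 CPM in AB42 GFP-positive libraries, against 14.9, 14.9 and 13.8 CPM in CPP GFP-positive libraries. The GFP-negative cells had 119, 103 and 129 CPM after AB42, against 149, 147 and 143 CPM after CPP. It fell 3.16-fold in GFP-positive and 1.25-fold in GFP-negative cells (difference -1.33 ± 0.16; edgeR adjusted p = 2.72e-08). GAD1, which makes GABA, and the calcium binder pvalb7 of cerebellar Purkinje cells differed by -0.93 ± 0.12 and -1.20 ± 0.16 (edgeR adjusted p = 8.16e-08 and 2.73e-07). Among the members called higher, RBFOX3 (ENSDARG00000010083), a splicing factor of mature neurons that was picked here after its values were seen, fell in both fractions, with log2 fold changes of -0.35 in GFP-positive and -1.15 in GFP-negative cells (difference 0.80 ± 0.13; edgeR adjusted p = 1.29e-05). A second gene with that symbol differed by 0.80 ± 0.35 and was not called (edgeR adjusted p = 0.0985). ELAVL3, an RNA-binding protein of neurons, averaged 181 ± 10.2 CPM in AB42 and 188 ± 6.45 CPM in CPP GFP-positive cells and 464 ± 19.7 CPM in AB42 and 569.9 ± 13.4 CPM in CPP GFP-negative cells (difference 0.24 ± 0.08; edgeR adjusted p = 0.0218). ELAVL3 lost its call without CPP GFP-positive replicate 1, AB42 GFP-negative replicate 2 or AB42 GFP-positive replicate 1 (edgeR adjusted p = 0.0631, 0.0771 and 0.0847). The count called lower was 10 without AB42 GFP-negative replicate 3, CPP GFP-negative replicate 1 or AB42 GFP-positive replicate 1, and the count called higher was 5 without AB42 GFP-negative replicate 2 or AB42 GFP-positive replicate 1.

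Synapse genes fell with AB42 in both fractions, with median effects of -0.72 in GFP-positive and -0.59 in GFP-negative cells, 45 and 57 of 67 members called lower, and 11 called lower and 5 called higher for the difference (16.4% and 7.46%, near the shares of all genes). The list's median difference of -0.11 lay near the -0.08 of all genes and was 0.12 with library totals. vamp1a, a vesicle fusion protein, fell 1.79-fold in GFP-negative cells with a difference of 0.71 ± 0.11 (edgeR adjusted p = 3.44e-06), whereas cplx2a, a complexin that clamps fusion, differed by -0.93 ± 0.14 (edgeR adjusted p = 3.54e-06). The 2 genes with the symbol SNAP25, which encodes a membrane fusion protein, differed by -0.70 ± 0.09 (ENSDARG00000058117) and -0.37 ± 0.07 (ENSDARG00000020609; edgeR adjusted p = 8.46e-08 and 0.000143), and ENSDARG00000020609 was not called under all 4 scalings.

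Neuropeptide genes were called lower in 20 of 48 members and higher in 2 (41.7% and 4.17%), with a median difference of -0.54. NPY, neuropeptide Y, averaged 2.93 ± 1.15 CPM in AB42 and 11.3 ± 0.925 CPM in CPP GFP-positive cells, and 88.5 ± 2.76 CPM in AB42 and 150.1 ± 8.23 CPM in CPP GFP-negative cells (difference -1.24 ± 0.19; edgeR adjusted p = 3.85e-06). CRH, corticotropin-releasing hormone, fell 4.11-fold in GFP-positive cells, with a difference of -1.75 ± 0.27 (edgeR adjusted p = 4.48e-06). The 2 members called higher were oxt and PMCH. oxt, the oxytocin precursor, averaged 118 ± 7.95 CPM and 112 ± 11.8 CPM in AB42 and CPP GFP-positive cells and 24.9 ± 2.89 CPM and 48.7 ± 2.32 CPM in AB42 and CPP GFP-negative cells, and its fall was called in GFP-negative cells and not in GFP-positive cells (difference 1.05 ± 0.12; edgeR adjusted p = 1.67e-08). PMCH, the melanin-concentrating hormone precursor, differed by 3.31 ± 0.65 (edgeR adjusted p = 0.000172) on 27 counts in AB42 and 4 counts in CPP GFP-positive libraries, and fell 1.48-fold in GFP-negative cells.

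Of 42 radial glia and stem cell genes, 14 were called lower and 1 higher (33.3% and 2.38%). Under all 4 scalings 5 of the 42 were called lower, a share near the 10.4% of all genes, and the median difference of -0.17 became 0.06 with library totals, where all genes had 0.15. The count called lower was 8 without CPP GFP-negative replicate 2 or AB42 GFP-negative replicate 3, and 9 without CPP GFP-negative replicate 1 or AB42 GFP-positive replicate 2, and the count called higher was 2 without CPP GFP-negative replicate 1 or 2 and 3 without AB42 GFP-negative replicate 2. GLUL (chr2:19339343-19343286), glutamine synthetase, which glia use to recycle glutamate, had 9733, 9713 and 10346 CPM in AB42 GFP-positive libraries, against 13507, 13502 and 14137 CPM in CPP GFP-positive libraries. The same enzyme had 1465, 1454 and 1458 CPM in AB42 GFP-negative libraries, against 1347, 1266 and 1322 CPM in CPP GFP-negative libraries. With TMM scaling it fell 1.38-fold in GFP-positive cells and rose 1.11-fold in GFP-negative cells (difference -0.62 ± 0.05; edgeR adjusted p = 6.85e-12). Whether so small a rise in GFP-negative cells holds in another scaling was not tested. GJA1, the gap junction protein connexin 43 of glia, and the growth factor MDK, midkine, differed by -0.57 ± 0.08 and -0.43 ± 0.08 (edgeR adjusted p = 3.05e-07 and 0.000139).

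GFAP, nes, S100B and her4.1 gave no called difference, and their intervals limit how large it could be with TMM scaling only. Library totals moved the median difference of all genes from -0.08 to 0.15 (log2). With library totals, the difference of her4.1 lay above the interval given below. GFAP, the glial filament, had 277, 296 and 306 CPM in AB42 GFP-positive libraries, against 185, 187 and 199 CPM in CPP GFP-positive libraries. It was low in the other fraction, with 4.01, 5.42 and 4.49 CPM in AB42 GFP-negative and 3.17, 3.10 and 3.33 CPM in CPP GFP-negative libraries. The fold changes of 1.54 and 1.45 in GFP-positive and GFP-negative cells differed by 0.08 (95% interval -0.26 to 0.42; edgeR adjusted p = 0.784). The interval was -0.19 to 0.30 around 0.06 for nes, another filament of progenitors, -0.06 to 0.45 around 0.19 for the calcium binder S100B, and -0.28 to 0.07 around -0.11 for her4.1 (edgeR adjusted p = 0.804, 0.301 and 0.409). FABP7 (ENSDARG00000007697), the brain fatty acid-binding protein, was called at -0.30 ± 0.07 (edgeR adjusted p = 0.000617) but not under all 4 scalings. A second gene with the symbol FABP7 had no called difference.

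Notch signalling genes were called lower in 9 of 38 members and higher in none (23.7% and 0%), 5 of them under all 4 scalings, with a median of -0.22 that became 0.01 with library totals. NRARP, a target and inhibitor of Notch, rose 1.19-fold in GFP-positive and 1.60-fold in GFP-negative cells (difference -0.43 ± 0.09; edgeR adjusted p = 0.000185). mfng, a glycosyltransferase that modifies Notch receptors, and the receptor NOTCH1 differed by -1.53 ± 0.20 and -0.81 ± 0.17 (edgeR adjusted p = 1.38e-07 and 0.000437).

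Cell cycle and DNA replication genes rose in both fractions, 39 of 70 members in GFP-positive and 48 in GFP-negative cells, with median effects of 0.48 and 0.66. For the difference 10 members were called lower and 1 higher (14.3% and 1.43%), of which 2 and 1 held under all 4 scalings, and the median of -0.24 was -0.02 with library totals. The count called lower was 5 without CPP GFP-negative replicate 2, and 6 without CPP GFP-negative replicate 1 or AB42 GFP-negative replicate 3; the count called higher was 2 without AB42 GFP-negative replicate 3 or AB42 GFP-positive replicate 3. PCNA, the clamp of DNA polymerase, had 142, 142 and 148 CPM in AB42 GFP-positive libraries, against 95.1, 89.2 and 95.9 CPM in CPP GFP-positive libraries. Its GFP-negative levels were 93.8, 86.2 and 101 CPM after AB42, against 62.7, 63.5 and 62.1 CPM after CPP. AB42 libraries were above CPP libraries in both fractions, by 1.54-fold and 1.49-fold, and the difference of 0.05 had a 95% interval of -0.15 to 0.25 (edgeR adjusted p = 0.777). For mki67, a marker of dividing cells, the difference was -0.26 with an interval of -0.64 to 0.12 (edgeR adjusted p = 0.361). kif11 and TOP2A, which act in mitosis, were called at -0.73 ± 0.20 and -0.64 ± 0.18 (edgeR adjusted p = 0.00508 and 0.00722), but not under all 4 scalings.

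Newborn neuron and neurogenic progenitor genes were called lower in 7 of 37 members and higher in 1 (18.9% and 2.7%), near the shares of all genes. The member called higher was ZIC1, a transcription factor of cerebellar granule cells and dorsal progenitors, which averaged 114 ± 5.37 CPM in AB42 and 133 ± 7.23 CPM in CPP GFP-positive cells and 341 ± 2.195 CPM in AB42 and 651 ± 15.4 CPM in CPP GFP-negative cells (difference 0.72 ± 0.08; edgeR adjusted p = 6.86e-09). ascl1a, a proneural factor, was called lower at -0.52 ± 0.13 (edgeR adjusted p = 0.00268), not under all 4 scalings, and its difference without AB42 GFP-negative replicate 3 was -0.36 (edgeR adjusted p = 0.0544). The count of members called lower was 3 without that library and 4 without CPP GFP-negative replicate 2 or AB42 GFP-positive replicate 1. The count called higher was 5 without CPP GFP-negative replicate 2, 3 without AB42 GFP-negative replicate 3, and 2 without CPP GFP-negative replicate 1, AB42 GFP-positive replicate 1 or any CPP GFP-positive library. With library totals 2 members were called lower and 6 higher.

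Motile cilia genes were the list with the most positive median, at 0.44, with 2 of 45 members called lower and 4 higher (4.44% and 8.89%). FOXJ1, the transcription factor that turns on motile cilia, had 164, 158 and 157 CPM in AB42 GFP-positive libraries, against 87.8, 82.9 and 81.0 CPM in CPP GFP-positive libraries. It had 14.2, 12.3 and 15.11 CPM in AB42 GFP-negative libraries, against 11.2, 11.8 and 12.8 CPM in CPP GFP-negative libraries. It rose 1.90-fold in GFP-positive cells, was not called in GFP-negative cells (edgeR adjusted p = 0.121) and differed by 0.73 ± 0.13 (edgeR adjusted p = 2.7e-05). TEKT1 and spag17, also called higher, had adjusted p of 0.0458 and 0.0498 (edgeR), and TEKT1 lost its call in 9 of the 12 fits that left out a library. DNAI4 and crocc2, which are not in the list and encode a dynein intermediate chain and a ciliary rootlet protein, differed by 2.11 ± 0.44 and 1.81 ± 0.49 (edgeR adjusted p = 0.000334 and 0.00565) on GFP-negative means of 0.451 ± 0.109 CPM and 0.352 ± 0.118 CPM after AB42, against 1.45 ± 0.361 CPM and 0.901 ± 0.141 CPM after CPP. RFX2, a transcription factor of ciliated cells, and spag1a, a dynein assembly factor, were the members called lower, at -0.63 ± 0.11 and -1.46 ± 0.13 (edgeR adjusted p = 3.89e-05 and 2.76e-11). The count called higher was 2 when any CPP GFP-positive library or AB42 GFP-positive replicate 1 or 2 was left out, and 1 without AB42 GFP-positive replicate 3. Summed over the list, AB42 GFP-positive libraries held 695 to 717 CPM and CPP GFP-positive libraries 606 to 623 CPM. AB42 GFP-negative libraries held 216 to 235 CPM and CPP GFP-negative libraries 165 to 173 CPM. These sums, in which abundant members weigh most, rose in both fractions and did not show the pattern of the median.

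Clock genes were called lower in 8 of 45 members and higher in 9 (17.8% and 20%), with a median difference of 0.19, and with library totals 6 were lower and 22 higher. The cryptochrome gene cry3a rose in both fractions and more in GFP-positive cells (difference 0.44 ± 0.10; edgeR adjusted p = 0.000956). CRY2, a clock repressor in mammals, fell in both fractions and differed by 0.39 ± 0.10 (edgeR adjusted p = 0.0047). Both were picked after their values were seen. Of the members called lower, 4 are given here. ciarta, a repressor of the clock, fell in both fractions, to 23.2 ± 0.767 CPM in AB42 against 140.5 ± 4.298 CPM in CPP GFP-positive cells and to 55.2 ± 3.42 CPM in AB42 against 174 ± 6.43 CPM in CPP GFP-negative cells (difference -0.93 ± 0.10; edgeR adjusted p = 4.67e-09). CSNK1D, a kinase that marks period proteins for breakdown, differed by -1.05 ± 0.10, and the repressors nfil3-6 and BHLHE40 by -0.89 ± 0.08 and -0.77 ± 0.07 (edgeR adjusted p = 2.03e-10, 1.16e-10 and 6.9e-11). The labels do not give the time of day of the dissections.

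Genes with the largest positive differences were mostly of low level. Of these, SCX and PRDM13 reached the 5 CPM asked of named genes only in AB42 GFP-positive cells. They were also picked for separated single-library ratios, so their standing apart in that group is in part fixed by how they were picked. SCX (chr19:3060575-3068672), scleraxis, a transcription factor of tendon and connective tissue, had 11.9, 6.96 and 9.02 CPM in AB42 GFP-positive libraries, against 1.82, 1.76 and 2.42 CPM in CPP GFP-positive libraries. Its level was 3.01, 2.86 and 3.59 CPM in AB42 GFP-negative libraries, against 3.44, 2.27 and 2.90 CPM in CPP GFP-negative libraries. Only the AB42 GFP-positive libraries stood apart, 4.66-fold above those of CPP (difference 2.07 ± 0.35; edgeR adjusted p = 1.83e-05). PRDM13, a transcription factor that specifies inhibitory neurons, behaved alike, at 6.83 ± 0.952 CPM in AB42 and 1.87 ± 0.166 CPM in CPP GFP-positive cells and 1.68 ± 0.410 CPM in AB42 and 1.90 ± 0.575 CPM in CPP GFP-negative cells (difference 2.06 ± 0.39; edgeR adjusted p = 8.82e-05). SLC16A3, a lactate exporter, rose 2.72-fold in GFP-positive cells with a fold change of 1.06 in GFP-negative cells (difference 1.36 ± 0.13; edgeR adjusted p = 1.02e-10).

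Further positive differences joined a rise in GFP-positive cells to a fall in GFP-negative cells. RND1 (chr23:27052633-27079521), a small GTPase that loosens the actin skeleton, had 150.2, 154 and 159 CPM in AB42 GFP-positive libraries, against 85.4, 89.7 and 95.6 CPM in CPP GFP-positive libraries. It had 47.5, 55.02 and 52.4 CPM in AB42 GFP-negative libraries, against 74.5, 68.0 and 67.8 CPM in CPP GFP-negative libraries. The groups of neither fraction overlapped, and the difference was 1.21 ± 0.10 (edgeR adjusted p = 8.01e-12). MARCKS and map1ab, which encode an actin-binding and a microtubule-associated protein, the axon guidance gene draxina and the pyruvate dehydrogenase kinase PDK2 (ENSDARG00000020876) had the same signs with differences of 0.70, 0.63, 0.69 and 0.83 (edgeR adjusted p = 4.89e-08, 6.85e-09, 1.32e-07 and 3.87e-08). A second gene with the symbol PDK2 (ENSDARG00000059054) rose 3.28-fold in GFP-negative cells and differed by -1.33 ± 0.12 (edgeR adjusted p = 2.85e-11).

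Growth factor and FGF, EGF signalling genes were called lower in 13 of 72 members and higher in 6 (18.1% and 8.33%; 10 higher without CPP GFP-negative replicate 1), near the shares of all genes. With library totals 7 were called lower and 16 higher. etv5a (chr9:22820918-22838182), a transcriptional target of FGF signalling, had 129, 141 and 136 CPM in AB42 GFP-positive libraries, against 166, 166 and 176 CPM in CPP GFP-positive libraries. GFP-negative libraries had 154, 148 and 152 CPM after AB42, against 382, 398 and 416 CPM after CPP. The gene fell in both fractions, 1.25-fold in GFP-positive and 2.64-fold in GFP-negative cells, a difference of 1.08 ± 0.08 (edgeR adjusted p = 9.76e-13). ETV4, a factor of the same family, and igf2b, insulin-like growth factor 2, had negative differences of -1.10 ± 0.15 and -1.12 ± 0.13 (edgeR adjusted p = 2.65e-07 and 1.16e-08). NGFR (ENSDARG00000089223), a neurotrophin receptor, averaged 1.99 ± 0.859 CPM in AB42 and 2.80 ± 0.437 CPM in CPP GFP-positive cells and 12.7 ± 1.49 CPM in AB42 and 3.57 ± 0.756 CPM in CPP GFP-negative cells (difference -2.36 ± 0.35; edgeR adjusted p = 2.77e-06). A second gene with the symbol NGFR (ENSDARG00000088708) differed by -0.50 ± 0.18 (edgeR adjusted p = 0.046), was not called under all 4 scalings and lost its call in 8 of the 12 fits that left out a library. BDNF, a neurotrophin, was low in GFP-positive cells and its difference of -0.42 was not called (95% interval -1.14 to 0.30; edgeR adjusted p = 0.449).

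Matrix genes were called lower in 19 of 65 members and higher in 4 (29.2% and 6.15%; 2 higher without CPP GFP-negative replicate 3 or CPP GFP-positive replicate 1 or 2). TIMP4 (chr11:687814-692063), an inhibitor of matrix proteases, had 151, 155 and 158 CPM in AB42 GFP-positive libraries, against 224, 220.4 and 219 CPM in CPP GFP-positive libraries. The GFP-negative groups had 44.9, 43.3 and 39.13 CPM after AB42, against 13.5, 12.1 and 13.6 CPM after CPP. It fell 1.43-fold where its level was high and rose 3.25-fold where its level was low (difference -2.22 ± 0.10; edgeR adjusted p = 2.05e-18). The laminin gene LAMB1 and the membrane protease MMP14 differed by -1.67 ± 0.23 and -0.89 ± 0.14 (edgeR adjusted p = 7.67e-07 and 3.97e-06).

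Glucocorticoid-induced genes were called lower in 11 of 26 members and higher in 3 (42.3% and 11.5%), and CEBPD, a transcription factor of the acute response, fell 1.60-fold in GFP-positive cells (difference -0.55 ± 0.08; edgeR adjusted p = 1.95e-06). Under all 4 scalings 6 members of that list were called lower and 3 higher, and library totals gave 6 lower and 5 higher. Glycolysis and hypoxia genes were called lower in 18 of 63 members and higher in 6 (28.6% and 9.52%), and ALDOC, a brain aldolase, averaged 28.5 ± 2.46 CPM in AB42 and 65.1 ± 5.66 CPM in CPP GFP-positive cells and 456 ± 3.04 CPM in AB42 and 405 ± 17.7 CPM in CPP GFP-negative cells (difference -1.36 ± 0.10; edgeR adjusted p = 1.14e-13). Of the glycolysis and hypoxia genes 11 were called lower and 6 higher under all 4 scalings, and library totals gave 11 lower and 15 higher. Cholesterol and fatty acid synthesis genes were called lower in 6 of 41 members and higher in 2 (14.6% and 4.88%; 1 higher without CPP GFP-positive replicate 2 or 3, AB42 GFP-negative replicate 1 or AB42 GFP-positive replicate 1, and 0 without AB42 GFP-positive replicate 2), and HMGCS1, an early enzyme of cholesterol synthesis, rose 1.39-fold and 2.47-fold in GFP-positive and GFP-negative cells (difference -0.83 ± 0.10; edgeR adjusted p = 3.4e-08). Library totals gave 5 lower and 7 higher in the cholesterol and fatty acid list. BMP, TGF-beta and Id genes were called lower in 11 of 63 members and higher in 4 (17.5% and 6.35%), near the shares of all genes, and the endothelial receptor gene acvrl1 differed by -1.84 ± 0.23 (edgeR adjusted p = 7.34e-08). In the BMP list library totals gave 7 lower and 14 higher. Wnt genes were called lower in 12 of 57 members and higher in 2 (21.1% and 3.51%), and the count called lower was 6 without AB42 GFP-negative replicate 3 and 7 without AB42 GFP-positive replicate 1, while 6 were called higher without CPP GFP-negative replicate 1 and 0 without AB42 GFP-positive replicate 1. Under all 4 scalings 5 Wnt genes were called lower and 2 higher, and library totals gave 5 lower and 8 higher. Nuclear-encoded oxidative phosphorylation genes were called lower in 9 of 86 members and higher in none (10.5% and 0%). That count moved with 9 of the 12 libraries: it was 18 without CPP GFP-positive replicate 2 or AB42 GFP-positive replicate 3, 2 without AB42 GFP-negative replicate 3, 3 without CPP GFP-negative replicate 2, and 4 without CPP GFP-negative replicate 1, CPP GFP-positive replicate 1 or 3, or AB42 GFP-positive replicate 1 or 2. The count called higher was 7 without CPP GFP-negative replicate 2, 4 without AB42 GFP-negative replicate 3 and 2 without CPP GFP-negative replicate 1. Under all 4 scalings 1 oxidative phosphorylation gene was called lower, and library totals gave 1 lower and 17 higher. The list's median difference of -0.07 became 0.16 with library totals, where all genes had 0.15. Erythrocyte genes were called lower in 2 of 14 members, the haemoglobin genes hbaa1 and hbaa2, and higher in 1, the carbonic anhydrase cahz (14.3% and 7.14%). Summed over this list, GFP-positive libraries held the more, at 554.4 to 590.3 CPM after AB42 and 554.3 to 582.2 CPM after CPP. GFP-negative libraries held 170.5 to 184.4 CPM after AB42 and 163.1 to 194.4 CPM after CPP. hbaa2 lost its call without CPP GFP-positive replicate 1 (edgeR adjusted p = 0.0816) or AB42 GFP-positive replicate 2 (0.0676), and cahz lost it in 5 of the 12 fits that left out a library, with adjusted p between 0.0506 and 0.13.

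**Figure D5:**
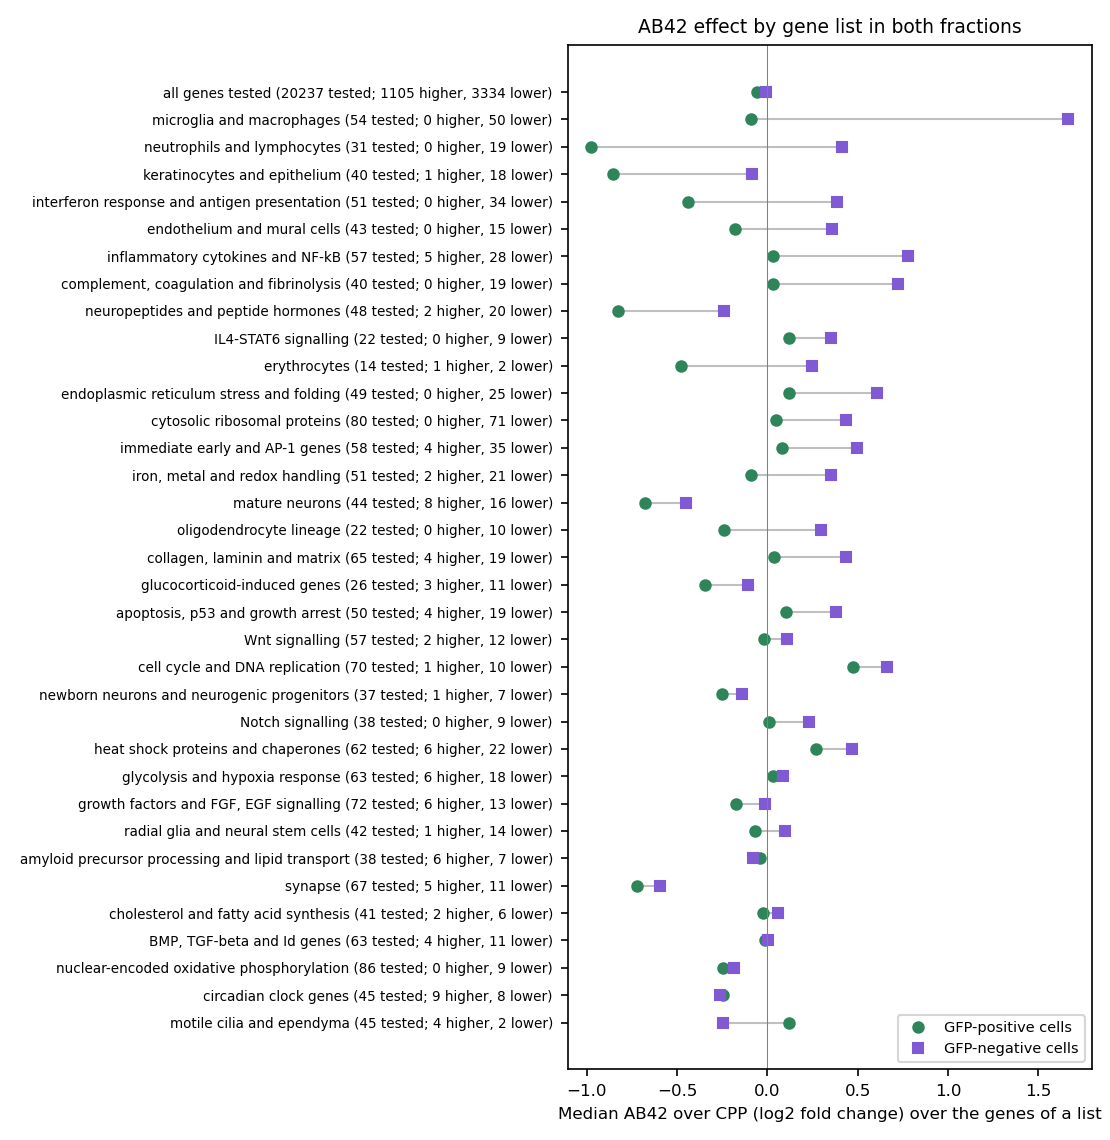
Median AB42 over CPP log2 fold change over the tested genes of each of the 34 lists and of all genes, in GFP-positive cells (green circles) and GFP-negative cells (purple squares), ordered by the median difference from most negative to most positive; the numbers beside each name are the genes tested, called higher and called lower. The widest gap is that of the microglia and macrophage genes, with -0.09 in GFP-positive and 1.67 in GFP-negative cells, and motile cilia genes are the last row, with 0.12 in GFP-positive and -0.25 in GFP-negative cells.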

How the data were processed

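RNA of sorted cells was turned into poly-dT-primed, PCR-amplified cDNA and sequenced as single-end reads of 75 bases, per the labels' protocols, without molecular identifiers. The authors aligned reads with BWA 0.7.12 and deposited whole-number counts per gene from featureCounts on GRCz10 (danRer10), per the submitters' processing notes. The annotation release, the strand setting and the treatment of reads that fit several genes are not stated there, so values of overlapping genes, antisense genes and near-identical copies are uncertain.

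From the counts, genes were filtered by group with filterByExpr, libraries were scaled with TMM factors, and the difference of the 2 AB42 effects was tested over the 4 group means of all 12 libraries with edgeR 4.0.16 (R 4.3.3; glmQLFit and glmQLFTest, two-sided, Benjamini-Hochberg over 20237 genes, called at adjusted p under 0.05). The test was also run on simulated counts with known changes in AB42 GFP-positive cells and otherwise equal means in all groups. Such counts cannot show how calls depend on the scaling when the fractions differ. SE is the size of the log2 difference divided by the square root of F. Alternatives used DESeq2 1.42.0, limma 3.58.1, other scalings and filters, and fits without a library. CPM are per library after TMM scaling; a floor of 3 counts per library bounds genes at 0. Counting intervals (exact, 95%) cover counting error only, since amplified reads are not independent molecules.

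Of 1773 listed symbols, 1669 matched a gene. Named genes were the 12 largest differences per direction with a group mean of at least 5 CPM and separated single-library ratios, the 5 smallest p per direction among genes moving oppositely in the fractions, up to 4 called members per list, and a set of fixed genes; most are given here. The members and lists were chosen with earlier results of these data known. Results for some of the genes named by this rule are not reported here.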

Additional observations from a re-analysis of the deposited data

Results flagged for a closer look

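The AB42 effect differed between GFP-positive and GFP-negative cells, by the test of the difference itself, for 4439 genes. Among the genes with the largest differences, those that were lower in the GFP-positive response included genes with few counts in AB42 GFP-positive libraries, whose fitted log2 differences depend on the prior count. For lymphocyte genes the difference was -6.55 for tbx21, -5.74 for ighm and -4.78 for igic1s1. GPR171, a receptor of blood cells, differed by -4.25 on 1 count in AB42 and 18 counts in CPP GFP-positive libraries, and was not called without CPP GFP-positive replicate 2 (-3.31; edgeR adjusted p = 0.0502). The chemokine gene ccl38a.5 differed by -4.33, the lipid receptor gene gpr55a by -4.62 and the thrombocyte gene itga2b by -5.23. Epithelial and secreted protein genes followed, with -5.78 for cldn7b, -5.53 for the lectin gene itln1, -4.68 for spink2.7 and -4.08 for spink2.5, both protease inhibitor genes. spink2.5 was not called without CPP GFP-positive replicate 2 or 3 or AB42 GFP-positive replicate 1, where the difference was -3.97, -3.87 and -3.58 (edgeR adjusted p = 0.0634, 0.0721 and 0.0612).

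With TMM scaling, opposite effects, lower in GFP-positive and higher in GFP-negative cells, flagged the antigen presentation genes mhc2dab (-2.31), cd74a (-2.01) and mhc2daa (-1.92), the protease inhibitor TIMP4 (-2.22) and the galectin lgals9l1 (-2.03). The reverse, higher in GFP-positive and lower in GFP-negative cells, flagged RND1 (1.21), PDK2 ENSDARG00000020876 (0.83), MARCKS (0.70), draxina (0.69) and map1ab (0.63).

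Among genes picked for level and separated single-library ratios, the largest positive differences were those of PMCH (3.31), clcf1 (2.79), ensaa (2.19), the collagen gene col7a1l (2.17), DNAI4 (2.11), SCX (2.07), PRDM13 (2.06), crocc2 (1.81), the phosphodiesterase subunit PDE6H (1.80), the transporter SLC16A12 (1.71), the potassium channel KCNJ10 (1.70) and TMCC2 (1.55). KCNJ10 was not called in 5 of the 12 fits that left out a library: without CPP GFP-negative replicate 1 or 3 the difference was 1.61 and 1.42, and without AB42 GFP-negative replicate 1, 2 or 3 it was 1.65, 1.84 and 1.70 (edgeR adjusted p between 0.0571 and 0.157).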

How the results depend on the processing

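The count of called genes stayed within 1.5 times of 4439 under every alternative run. It was 4172 with DESeq2 (3969 of these calls shared with edgeR in the same direction), 4296 with limma voom, 4401 with RLE factors, 4438 with TMM factors computed without malat1 and hsp70 genes, 4521 without a filter beyond 1 count and 4445 with a mean of at least 1 CPM. The split by direction moved: library totals gave 3248 higher and 2109 lower, and upper-quartile scaling gave 1659 higher. Another scaling moves the difference of all genes by about the same amount, and their median was -0.08 with TMM factors and 0.15 with library totals. Leaving out 1 library at a time gave 3839 to 4382 called genes, with 907 to 1470 higher and 2517 to 3257 lower. The median difference of all genes was -0.002 without AB42 GFP-negative replicate 3. It was -0.010 and -0.015 without CPP GFP-negative replicates 1 and 2, and between -0.0844 and -0.0715 without any other library. Counts of a list without those libraries are to be read beside this shift of all genes. The replicate numbers were not taken to pair the libraries, since the labels do not say that they do and same-numbered libraries did not all deviate together: the correlations of their deviations ran from -0.058 to 0.087 for number 1, from 0.066 to 0.161 for number 2 and from 0.167 to 0.269 for number 3 (6 pairs each), against -0.258 to 0.171 over 36 pairs of different numbers. The libraries numbered 3 thus share some variation. A fit with the replicate block over all groups called 5105 genes (1414 higher and 3691 lower), and one with the replicate block by injection and number called 4828 (1289 and 3539). Of 171 named genes with a call, both blocks kept all, 157 kept the call in all 12 fits without a library, and calls were lost for 14 with library totals, 3 with DESeq2, 2 each with voom and upper-quartile scaling and 1 with RLE. Signs turned only for genes with no call: the difference of her4.1 was 0.1198 with library totals. Over the fits without a library it ran from -0.1608 to 0.00105 for her4.1, -0.007103 to 0.2173 for GFAP, -0.005152 to 0.1842 for nes, -0.00794 to 0.1805 for PCNA and -0.006236 to 0.2395 for FABP7 ENSDARG00000034650; the cause was not tested. Depth limits the genes with under 3 counts per library in AB42 GFP-positive cells.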
